A study of Mus musculus with 6 samples.

Results

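Iron handling was examined through 10 genes of the 25701 in the count table, selected by their gene symbols: *Slc40a1*, *Fth1*, *Ftl1*, *Ncoa4*, *Hmox1*, *Blvrb*, *Tfrc*, *Slc11a2*, *Slc11a1* and *Ireb2*. They cover export of iron from the cell, its storage, the breakdown of heme, uptake and sensing, and all 10 passed the filter on low counts that left 13485 genes. The set was put together with the difference between the groups already known, so the values of these 10 genes in the comparison are given as a description, without a test. Bulk RNA-seq was made from CD11b+ cells, which were isolated by magnetic beads from TC1 tumors of male mice. The tumors had grown under the skin of the flank for 24 days. The stated age of the mice, 8 weeks, is that of tamoxifen treatment in the methods, before TC1 cells were injected. TC1 is a mouse lung epithelial tumor line, and CD11b is an integrin carried by monocytes, macrophages and neutrophils. All mice had the same genotype, MCT2loxP/loxP;Cre+ on a C57BL/6 background, with a systemic, tamoxifen-inducible Cre. The 3 MCT2 KO mice had been given tamoxifen and the 3 MCT2 CO mice vehicle. Loss of the lactate and pyruvate transporter MCT2 and the drug itself therefore cannot be told apart, and neither can loss in the myeloid cells and loss in the rest of the host. The paper reports larger tumors in MCT2 KO mice. Effects of tumor size and of Cre activity cannot be told apart from these either.

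Macrophages take up iron mainly as heme from engulfed red cells and as iron bound to transferrin. Heme is opened by heme oxygenase into biliverdin, carbon monoxide and iron. Iron that is not used is stored in ferritin or leaves the cell through ferroportin, the only known exporter of iron in mammals. Iron regulatory proteins bind a short RNA hairpin, the iron responsive element, in several of these transcripts. When iron is scarce, binding near the start of a transcript blocks its translation and binding behind the coding sequence protects it from decay. Ferritin and ferroportin can therefore change in amount as proteins without any change of the mRNA measured here.

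The hairpins are shown because, where one is found, its place in the transcript tells whether binding bears on translation or on mRNA decay. A pattern of a bulge C, 5 bases, the loop CAGTGN and 5 bases that pair with the first 5 was searched in the untranslated ends of GENCODE M21 transcripts (GRCm38), on the transcript strand. It was present in 4 of the 10 genes, and in 158 of the 21901 genes with a protein-coding transcript (0.721%). The 158 lack matches on a chromosome that was left out, named further below, so this share may be slightly too low. The sequences run 5′ to 3′ in DNA letters, 30 bases each, and the capitals mark the loop.
Fth1, 5′ end: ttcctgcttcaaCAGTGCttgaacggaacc
Ftl1, 5′ end: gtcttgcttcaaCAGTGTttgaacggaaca
Slc40a1, 5′ end: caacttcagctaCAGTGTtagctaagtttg
Tfrc, 3′ end, match 1: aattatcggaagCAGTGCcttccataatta
Tfrc, 3′ end, match 2: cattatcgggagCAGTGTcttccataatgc
Tfrc, 3′ end, match 3: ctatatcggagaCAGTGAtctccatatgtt
Tfrc, 3′ end, match 4: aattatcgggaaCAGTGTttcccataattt
The *Fth1* match lies at chr19:9982732-9982761 on the plus strand, that of *Ftl1* at chr7:45459778-45459807 on the minus strand, and that of *Slc40a1* at chr1:45925464-45925493 on the minus strand. The 4 matches of *Tfrc* lie on the plus strand at chr16:32631219-32631248, chr16:32631598-32631627, chr16:32631663-32631692 and chr16:32631710-32631739. Both ferritin genes and the exporter thus carried the pattern ahead of the coding sequence, and the transferrin receptor carried it behind. No match in the other 6 genes, *Slc11a2* among them, says only that this pattern was not in their untranslated ends. A hairpin of another form would be missed.

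Total counts ranged from 24863611 to 31713704 per library. *Slc16a7*, which encodes MCT2 and is the gene targeted in the KO, had 16.0, 11.0 and 11.2 CPM in the MCT2 CO libraries, in the order of their replicate numbers, and 8.22, 4.97 and 5.34 CPM in the MCT2 KO libraries. CPM are counts scaled to a common library size with TMM factors, and libraries are given in this order throughout. Its log2 fold change was -1.05 (SE 0.24), with an adjusted p of 0.37 by edgeR's quasi-likelihood test. Across the whole table that test called 0 of 13485 (0%) under a threshold of 0.05 on the adjusted p together with 0.58 on the size of the log2 fold change. Unadjusted p values under 0.05 were found for 1264 genes (9.37%), 3.77% higher and 5.6% lower in MCT2 KO. Under the same thresholds DESeq2 called 79 of these genes (0.586%), or 83 when every gene with a count was entered (0.448%). The median log2 fold change was 0.00.

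*Slc40a1* (ENSMUSG00000025993; GRCm38 chr1:45908068-45926523, minus strand) encodes ferroportin, the iron exporter. The deposited counts were 32, 43 and 31 for MCT2 CO and 72, 368 and 99 for MCT2 KO. In CPM, the MCT2 CO libraries had 1.07, 1.65 and 1.17 and the MCT2 KO libraries 3.02, 11.3 and 3.98. All 3 MCT2 KO libraries were above all 3 MCT2 CO libraries, and replicate 2 stood far above the other two MCT2 KO libraries. The means were 1.30 ± 0.314 (SD, n = 3) and 6.10 ± 4.53 (SD, n = 3), a ratio of 4.71. Its log2 fold change was 2.25 (SE 0.51, 95% interval 1.07 to 3.43), the 14th highest of the 13485 genes tested, and 0.104% of the genes tested were at least as high. Without MCT2 KO replicate 2 the log2 fold change was 1.44.

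The counts of *Slc40a1* were small. The lowest, 31, has an exact Poisson interval of 21.1 to 44.0 and the highest, 368, one of 331 to 408. These intervals cover counting error only. In MCT2 KO those of replicate 1 (56.3 to 90.7) and replicate 3 (80.5 to 121) overlapped, and replicate 2 lay outside both. In this bulk RNA, a larger share of ferroportin-expressing cells and more ferroportin mRNA per cell cannot be told apart. edgeR did not call the gene and DESeq2 did, alone among the members, which gives 0 of 10 members called beside 0% of all genes by edgeR, and 1 of 10 beside 0.586% by DESeq2. Nothing is read from these counts, since the members were chosen on this comparison.

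**Figure D1:**
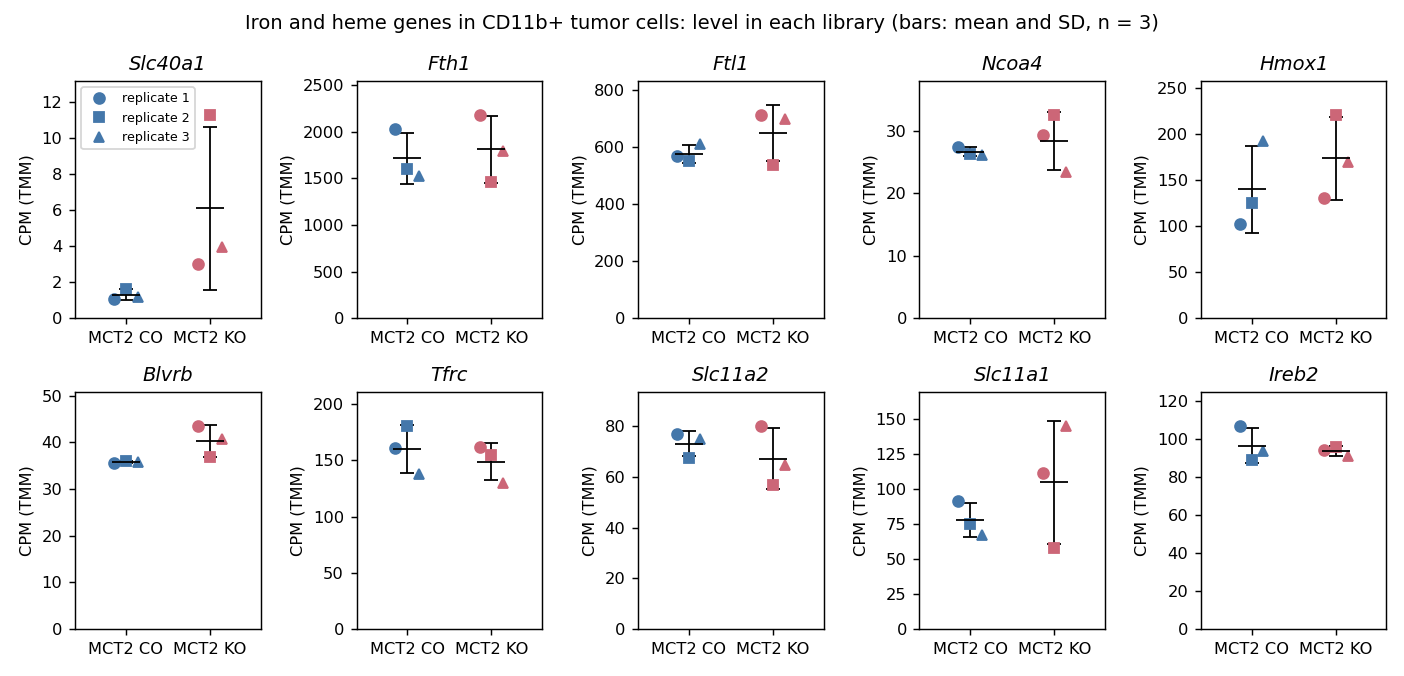
Level of each of the 10 genes in CPM (TMM-normalized, each panel on its own linear axis from 0) in the 3 MCT2 CO and 3 MCT2 KO libraries, with one symbol per replicate and bars for the mean and SD. *Slc40a1* and *Blvrb* are the genes whose groups do not overlap, and *Slc40a1* in MCT2 KO replicate 2, at 11.3 CPM, is far above every other library.

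The stored form of iron was represented by both ferritin subunits and the receptor that delivers ferritin for breakdown, and none of these separated the groups. *Fth1* (ENSMUSG00000024661; chr19:9980598-9985098, plus strand), the heavy subunit with the ferroxidase activity, had 2030, 1600 and 1520 CPM in MCT2 CO and 2180, 1460 and 1790 CPM in MCT2 KO. It was the most abundant member, and its highest and lowest values were both in MCT2 KO libraries. The log2 fold change was 0.07 (SE 0.18, 95% interval -0.34 to 0.48).

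*Ftl1* (ENSMUSG00000050708; chr7:45457944-45459884, minus strand), the light subunit, had 567, 551 and 611 CPM in MCT2 CO and 712, 535 and 699 CPM in MCT2 KO. MCT2 KO replicates 1 and 3 were above every MCT2 CO library and replicate 2 was below every one of them. The log2 fold change was 0.17 (SE 0.13, 95% interval -0.13 to 0.47). The level of *Ftl1* is uncertain, because 26.5% of its exon bases lie inside the span of *Gm10252* and ferritin light chain has pseudogene copies that can share its reads.

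*Ncoa4* (ENSMUSG00000056234; chr14:32159865-32179855, plus strand) encodes the receptor that carries ferritin to the lysosome. It had 27.5, 26.3 and 26.2 CPM in MCT2 CO, a spread of 0.695 (SD), and 29.3, 32.6 and 23.4 CPM in MCT2 KO, a spread of 4.63 (SD). The MCT2 KO values lay on both sides of the narrow MCT2 CO range. The log2 fold change was 0.09 (SE 0.13, 95% interval -0.20 to 0.38).

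The balance of heavy to light ferritin mRNA did not separate the groups either. The log2 ratio of *Fth1* to *Ftl1* CPM averaged 1.57 for MCT2 CO, with an SD of 0.265 (n = 3), and 1.47 for MCT2 KO, with an SD of 0.134 (n = 3), a difference of -0.09 that is smaller than either SD.

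Of the genes of heme breakdown, *Hmox1* varied widely within both groups, whereas *Blvrb* was nearly constant among the MCT2 CO libraries. *Hmox1* (ENSMUSG00000005413; chr8:75093621-75100589, plus strand) encodes the inducible heme oxygenase, which opens the heme ring. It had 102, 125 and 193 CPM in MCT2 CO and 131, 221 and 170 CPM in MCT2 KO. The lowest value was in a control and the highest in MCT2 KO replicate 2, but MCT2 CO replicate 3 exceeded the other two MCT2 KO libraries. The log2 fold change was 0.32 (SE 0.26, 95% interval -0.28 to 0.91).

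*Blvrb* (ENSMUSG00000040466; chr7:27447978-27466144, plus strand) encodes biliverdin reductase B, which reduces biliverdins and flavins with NADPH. It had 35.5, 36.0 and 35.7 CPM in MCT2 CO and 43.6, 36.8 and 40.7 CPM in MCT2 KO. All MCT2 KO values were above all MCT2 CO values, but the gap between the groups was less than 1 CPM. The means were 35.7 ± 0.252 (SD, n = 3) and 40.4 ± 3.40 (SD, n = 3), with a log2 fold change of 0.18 (SE 0.09, 95% interval -0.03 to 0.38). The log2 ratio of *Hmox1* to *Blvrb* averaged 1.92 for MCT2 CO, with an SD of 0.465 (n = 3), and 2.08 for MCT2 KO, with an SD of 0.502 (n = 3), and the groups overlapped.

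*Slc40a1* and *Blvrb* were the 2 of 10 members with groups that did not overlap, both higher in MCT2 KO. Over all genes tested 15.8% did not overlap, 7.07% higher and 8.77% lower in MCT2 KO. When MCT2 KO replicate 2 was left out, *Slc11a1* and *Ftl1* joined them, which makes 4 of 10 beside 31.7% of all genes.

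None of the uptake genes separated the groups. *Tfrc* (ENSMUSG00000022797; chr16:32608920-32632794, plus strand), the receptor for iron-loaded transferrin, had 161, 181 and 138 CPM in MCT2 CO and 162, 155 and 130 CPM in MCT2 KO. The ranges overlapped, and the log2 fold change was -0.10 (SE 0.13, 95% interval -0.39 to 0.18). As *Tfrc* is the member with the pattern behind its coding sequence, its mRNA level is the one of the 4 that iron regulatory proteins are known to stabilize.

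*Slc11a2* (ENSMUSG00000023030; chr15:100387898-100425072, minus strand) encodes DMT1, which moves ferrous iron out of the endosome. It had 76.8, 67.4 and 75.0 CPM in MCT2 CO and 80.2, 56.9 and 64.5 CPM in MCT2 KO. Its highest and its lowest value were in MCT2 KO libraries, and the log2 fold change was -0.12 (SE 0.13, 95% interval -0.42 to 0.18). The span of *Gm5475* covers 8.86% of its exon bases.

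*Slc11a1* (ENSMUSG00000026177; chr1:74375195-74386062, plus strand) encodes NRAMP1, the metal transporter of phagosomes. It had 91.4, 74.7 and 67.3 CPM in MCT2 CO and 111, 57.4 and 145 CPM in MCT2 KO. MCT2 KO replicates 1 and 3 were above all controls and replicate 2 was below all of them. After *Slc40a1* it had the largest log2 fold change among the members, at 0.42 (SE 0.29, 95% interval -0.25 to 1.10). Its log2 fold change was 0.72 without MCT2 KO replicate 2 and 0.12 without MCT2 KO replicate 3, where *Hmox1* was higher at 0.34.

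*Ireb2* (ENSMUSG00000032293; chr9:54863789-54912530, plus strand) encodes iron regulatory protein 2, which binds the hairpins printed above and is itself degraded when iron is plentiful. It had 107, 88.9 and 93.7 CPM in MCT2 CO and 94.3, 96.0 and 90.9 CPM in MCT2 KO. The MCT2 KO libraries lay inside the MCT2 CO range, and the log2 fold change was -0.04 (SE 0.09, 95% interval -0.25 to 0.16).

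**Figure D2:**
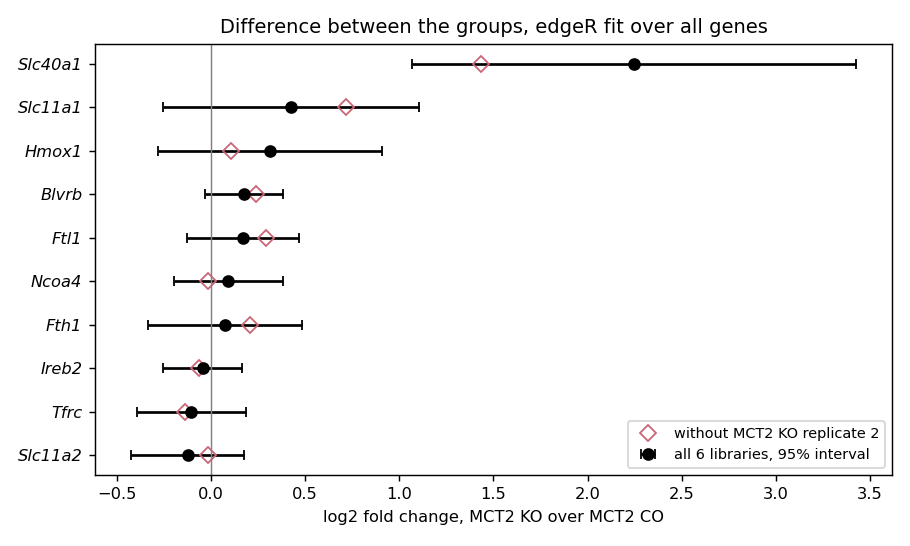
Log2 fold change of each of the 10 genes, MCT2 KO over MCT2 CO, with its 95% interval from the edgeR fit (filled circles, 6 libraries) and the value without MCT2 KO replicate 2 (open diamonds). *Slc40a1*, at 2.25 and at 1.44 without that library, lies apart from the other 9 genes, which run from -0.12 to 0.42.

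Over the 10 members, 7 log2 fold changes were above 0 and 3 below, beside 50.1% above 0 among all genes tested. Their median was 0.13, and 0.09 without *Slc40a1*. The ratio of the uptake receptor to the exporter restates the difference in *Slc40a1*, since *Tfrc* overlapped between the groups. The log2 ratio of *Tfrc* to *Slc40a1* CPM was 7.23, 6.78 and 6.89 in MCT2 CO and 5.74, 3.78 and 5.03 in MCT2 KO. All MCT2 KO ratios were below all MCT2 CO ratios, and the means differed by -2.12.

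Per length of exon, the ferritin mRNAs were by far the most abundant members and ferroportin mRNA the scarcest. The deposited gene lengths are whole spans, so reads in introns may be among the counts, and close ranks are uncertain. In MCT2 CO, in CPM per kilobase of exon, *Fth1* had 495 ± 78.9 (SD, n = 3) and *Ftl1* 430 ± 23.3 (SD, n = 3), and the ranges of these neighbours overlapped. *Hmox1* followed with 80.0 ± 27.0 (SD, n = 3), and then *Tfrc* with 25.9 ± 3.48 (SD, n = 3) and *Slc11a1* with 21.0 ± 3.32 (SD, n = 3), which also overlapped. *Blvrb* had 12.8 ± 0.0907 (SD, n = 3), above the range of *Slc11a2* with 11.5 ± 0.785 (SD, n = 3), which overlapped that of *Ireb2* with 10.2 ± 0.993 (SD, n = 3). *Ncoa4* had 2.85 ± 0.0743 (SD, n = 3), and *Slc40a1* was lowest at 0.144 ± 0.0349 (SD, n = 3) and remained lowest in MCT2 KO with 0.677 ± 0.503 (SD, n = 3).

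MCT2 KO replicate 2 held the highest or the lowest value of 7 of the 10 members, beside 43.1% of all genes tested. It was highest for *Slc40a1*, *Ncoa4* and *Hmox1* and lowest for *Slc11a1*, *Slc11a2*, *Fth1* and *Ftl1*. Relative to the MCT2 CO mean it stood at 3.08 for *Slc40a1* and 0.71 for *Hmox1* on the log2 scale, but at -0.43 for *Slc11a1* and -0.23 for *Fth1*. MCT2 KO replicate 1 showed another arrangement, with the highest values of *Fth1*, *Ftl1*, *Slc11a2* and *Blvrb*. MCT2 CO replicate 3, which was extreme for 48.1% of all genes, was extreme for 0 of the 10 members.

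**Figure D3:**
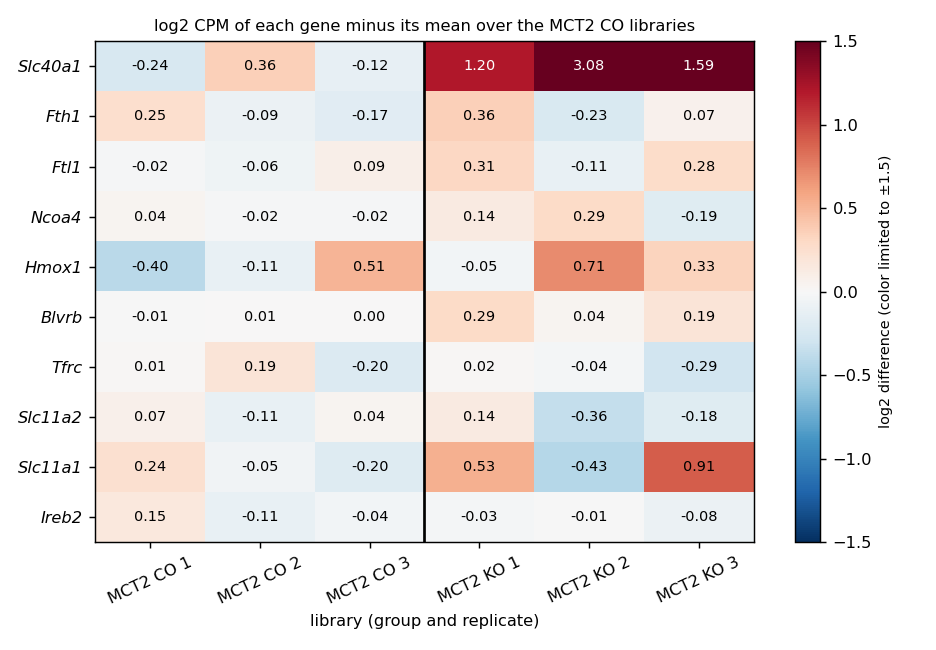
Log2 CPM (prior count 2) of each of the 10 genes in each library minus its mean over the 3 MCT2 CO libraries, with the value printed in each cell and the color limited to 1.5 in either direction. The *Slc40a1* row is raised in all 3 MCT2 KO libraries, by 1.20, 3.08 and 1.59, whereas *Hmox1*, *Slc11a1* and the ferritin rows differ in sign between MCT2 KO libraries.

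Some abundant genes ranked the libraries nearly as *Slc40a1* did. Among 9528 genes of at least 10 CPM, the genes closest to *Slc40a1* over the 6 libraries were *Pgam1* (Pearson's r = 0.996, log2 CPM), a glycolytic phosphoglycerate mutase, *Sqor* (r = 0.993), a mitochondrial sulfide quinone oxidoreductase, and *Lars1* (r = 0.993), a cytosolic leucyl-tRNA synthetase. *Pgam1* had 47.0, 50.5 and 47.4 CPM in MCT2 CO and 55.1, 71.8 and 60.6 CPM in MCT2 KO. With 6 libraries and so many genes compared, these values describe likeness in these libraries only. The changes in CPM were far smaller than that of *Slc40a1*, with a log2 fold change of 0.37 for *Pgam1*.

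Beyond the 10 members, 73 other genes of iron and heme metabolism were listed by role. Of these, 65 passed the filter on low counts, and edgeR's quasi-likelihood test called 0 of 65, beside 0% of all genes. The lowest adjusted p was 0.39, and 4 genes were higher and 2 lower at an unadjusted p under 0.05, which is 6 of 65 beside 9.37% of all genes. DESeq2 also called 0 of them. Of the 65, 40 were above 0 and 25 below, with a median log2 fold change of 0.07. In 13 the groups did not overlap, 9 higher and 4 lower in MCT2 KO, beside 15.8% of all genes. The genes left out for low counts were *Hamp*, which encodes the hormone hepcidin, *Heph*, *Hephl1*, *Bmp6*, *Hjv*, *Cybrd1*, *Ftmt* and *Alas2*. The exons of *Alas2* lie wholly inside the span of *Apex2*, so that its 0 counts may not measure it.

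The highest log2 fold change of the list was that of *Spic*, a transcription factor of the red pulp macrophages that recycle iron in the spleen. *Spic* had 1.47, 1.15 and 2.22 CPM in MCT2 CO and 3.14, 3.32 and 3.41 CPM in MCT2 KO. The groups did not overlap, and the log2 fold change was 1.03 with an adjusted p of 0.39 by edgeR's quasi-likelihood test. Unlike *Slc40a1*, *Spic* was at nearly the same level in all 3 MCT2 KO libraries. *Nr1h3*, which encodes the oxysterol receptor LXR alpha, had 41.4, 27.4 and 16.1 CPM in MCT2 CO and 57.4, 29.1 and 50.4 CPM in MCT2 KO, with groups that overlapped (log2 fold change 0.68, edgeR adjusted p = 0.582). After these came *Lcn2*, a siderophore-binding lipocalin, at 0.55 (edgeR adjusted p = 0.597).

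At the other end of the list stood *Mafk*, a small Maf protein that pairs with BACH1 and NRF2 on the *Hmox1* and ferritin genes. *Mafk* had 142, 176 and 255 CPM in MCT2 CO and 134, 127 and 131 CPM in MCT2 KO. The groups did not overlap (log2 fold change -0.55, edgeR adjusted p = 0.47), and the controls were the more scattered group. *Flvcr2*, a transporter of the FLVCR family, was at -0.54 with values under 1 CPM in every library (edgeR adjusted p = 0.663). *Pcbp1*, a chaperone that hands iron to ferritin, had 220, 199 and 207 CPM in MCT2 CO and 177, 160 and 150 CPM in MCT2 KO, groups that did not overlap (log2 fold change -0.36, edgeR adjusted p = 0.39).

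By role, the genes of heme and hemoglobin uptake, transport and breakdown had 10 of 12 members above 0 and a median of 0.18, and 0 of 12 were called. The most abundant of them was *Lrp1*, the receptor for heme bound to hemopexin, with 983, 1090 and 1130 CPM in MCT2 CO and 1220, 1200 and 1190 CPM in MCT2 KO (log2 fold change 0.17, edgeR adjusted p = 0.621). *Blvra*, the other biliverdin reductase, had 43.6, 38.3 and 40.5 CPM in MCT2 CO and 48.0, 44.0 and 48.8 CPM in MCT2 KO. Its groups did not overlap, as those of *Blvrb* did not, and its log2 fold change was 0.20 (edgeR adjusted p = 0.533). *Blvra* falls outside the rule for named genes, as does *Aco1* below, and was chosen after its values were seen.

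In heme synthesis 6 of 9 genes were above 0, with a median of 0.04 and 0 called. *Alas1*, the enzyme of the first step outside the erythroid lineage, had 72.5, 78.4 and 69.8 CPM in MCT2 CO and 99.7, 90.2 and 84.8 CPM in MCT2 KO. The groups did not overlap (log2 fold change 0.32, edgeR adjusted p = 0.426). Of the 19 genes of mitochondrial iron and iron-sulfur assembly, 12 were above 0, with a median of 0.06 and 0 called. Their most abundant gene was the mitochondrial iron importer *Slc25a37*, at 0.06 (edgeR adjusted p = 0.891).

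In iron uptake and reduction 6 of 10 genes were above 0, with a median of 0.13 and 0 called. Transferrin itself, *Trf*, had 177, 145 and 136 CPM in MCT2 CO and 264, 193 and 134 CPM in MCT2 KO, and the groups overlapped. Of the 3 genes of export and the hepcidin axis that passed the filter, 1 was above 0, and the ferroxidase *Cp*, which works beside ferroportin, was at -0.26 (edgeR adjusted p = 0.738), with 21.8% of its exon bases inside the span of *Hps3*. Iron sensing was represented by *Aco1* and *Fbxl5*, the latter the iron-binding part of the ligase that degrades iron regulatory proteins. Of the 2 iron sensing genes 1 was above 0 and 0 were called. *Aco1*, which encodes iron regulatory protein 1, had 66.6, 67.0 and 66.0 CPM in MCT2 CO and 71.4, 63.0 and 64.2 CPM in MCT2 KO, with groups that overlapped and a log2 fold change of -0.01 (edgeR adjusted p = 0.982). *Fbxl5* had 118, 114 and 108 CPM in MCT2 CO and 121, 135 and 141 CPM in MCT2 KO (log2 fold change 0.22, edgeR adjusted p = 0.502), groups that did not overlap.

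The iron chaperones held 2 genes that passed the filter, and they stood on opposite sides of 0, with 0 called. *Pcbp2*, at 0.11 (edgeR adjusted p = 0.714), has 30.2% of its exon bases inside the span of *Map3k12*. The 8 heme-responsive transcription factors had 3 above 0 and a median of -0.02, with 0 called, although they held both the highest and the lowest gene of the list. *Nfe2l2*, which encodes NRF2 and was the most abundant of them, was at 0.11 (edgeR adjusted p = 0.786).

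**Figure D4:**
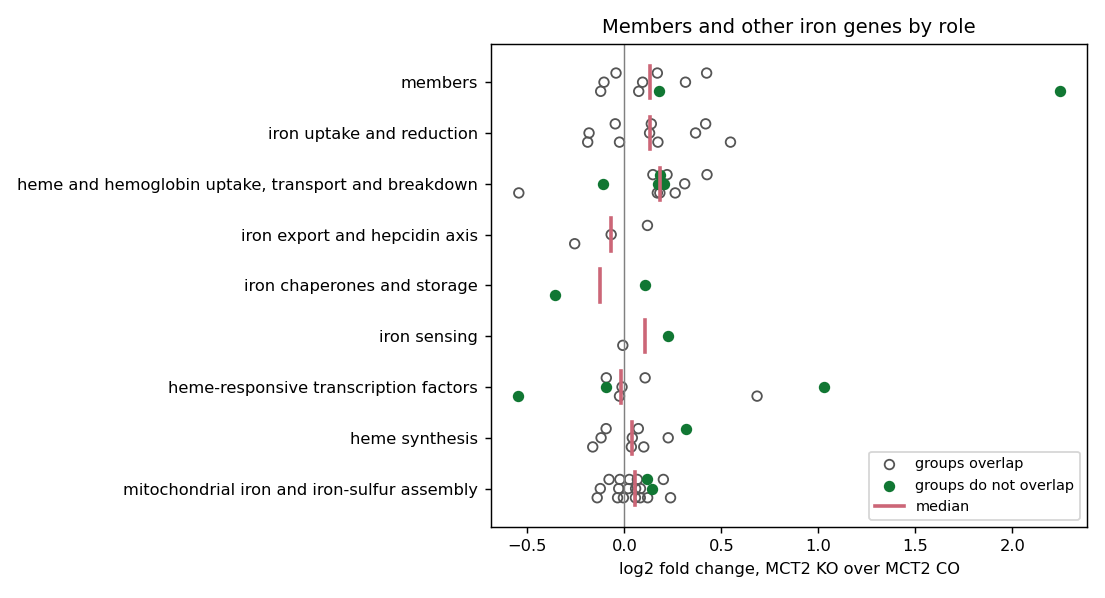
Log2 fold change, MCT2 KO over MCT2 CO, of the 10 members and of the 65 other iron genes that passed the filter, arranged by role, with vertical bars at the median of each group. Filled points are genes whose groups do not overlap, and *Slc40a1* at 2.25 lies beyond every other iron gene, of which *Spic* at 1.03 is the next highest.

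Other genes that carry the hairpin pattern were near the background of all genes. Members and genes on chromosome 18 were left out. Genes on that chromosome are also missing from the 158 genes with the pattern given above. Of the 122 other genes with the pattern that were tested, 60 were above 0 (49.2%, beside 50.1% of all genes). An unadjusted p under 0.05 was found for 10 (8.2%, beside 9.37%). The median log2 fold change was 0.00 and 0 were called.

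The summed levels of the B cell and fibroblast markers did not overlap between the groups, and those of the other marker lists did. The part of other cell types in the differences of the iron genes was not tested. The 11 macrophage markers summed to 5510 to 7410 CPM in MCT2 CO and 6640 to 10400 CPM in MCT2 KO. Log2 fold changes were above 0 for 11 of 11, but the groups did not overlap in 0 of 11, beside 15.8% of all genes. All 4 markers of red pulp macrophages (*Spic*, *Vcam1*, *Cd163* and *Treml4*) were also above 0, and they summed to 115 to 164 CPM in MCT2 CO and 162 to 229 CPM in MCT2 KO. *Vcam1* made up 88.9% of that sum, and the others together were at 14.8 to 18.1 CPM in MCT2 CO and 19.5 to 21.8 CPM in MCT2 KO. *Cd163* was at 4.21 CPM in MCT2 KO replicate 2 and between 0.629 and 2.26 CPM in the other libraries. The monocyte markers were at 314 to 415 CPM in MCT2 CO and 312 to 404 CPM in MCT2 KO.

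Those markers of red cells and their precursors that were analysed were at low levels in every library. The 9 erythroid markers analysed summed to 5.79 to 7.94 CPM in MCT2 CO and 4.64 to 11.8 CPM in MCT2 KO, of which *Ermap* made up 79.9%. Without *Ermap* they summed to 0.828 to 1.65 CPM in MCT2 CO and 0.924 to 2.89 CPM in MCT2 KO, with 1.32 CPM in MCT2 KO replicate 2. *Hbb-bs* and *Ahsp*, also listed, were not found by symbol among the counted genes, so their levels are not known here. *Hba-a1*, an alpha globin gene, was at 0.201 to 1.09 CPM, and *Alas2*, inside another gene's span, was the marker at 0.

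Neutrophil markers summed to 83.3 to 103 CPM in MCT2 CO and 69.6 to 186 CPM in MCT2 KO, with 7 of 8 tested markers above 0. In 6 of the 8 the groups did not overlap, all higher in MCT2 KO, beside 7.07% of all genes. *Csf3r*, which is also expressed by monocytes and macrophages, made up 78.6% of the sum, and without it the sums were 9.08 to 12.4 CPM in MCT2 CO and 66.0, 28.5 and 20.0 CPM in MCT2 KO, so that all 3 MCT2 KO libraries were above all controls. B cell markers were lower in MCT2 KO, at 3.96 to 16.1 against 17.5 to 23.0 CPM, with 5 of 5 below 0. Fibroblast markers were at 1710 to 1820 against 2040 to 3360 CPM, with 7 of 7 below 0, but without *Col3a1*, 54.8% of the sum, the ranges overlapped, at 803 to 1010 against 858 to 1330 CPM. T cell markers ran from 7.27 to 71.3 CPM in MCT2 KO and from 23.2 to 44.1 in MCT2 CO, and dendritic cell markers from 22.4 to 55.3 and from 38.8 to 48.2 CPM. Endothelial markers were at 79.4 to 138 CPM in MCT2 KO and 90.9 to 98.6 in MCT2 CO, and epithelial or tumor markers, 95.7% of them *Cdh1*, at 18.5 to 33.5 and 13.9 to 20.9 CPM. Proliferation genes were at 1910 to 2230 CPM in MCT2 KO and 1890 to 2060 in MCT2 CO. edgeR's quasi-likelihood test called 0 genes in each of these lists. MCT2 KO replicate 2, the library with the most *Slc40a1* and *Hmox1*, had the lowest sums of the T cell, B cell and dendritic cell markers, with and without the most abundant gene of each list. It also had the lowest sums of the neutrophil, endothelial and erythroid markers, but not once *Csf3r*, *Pecam1* and *Ermap* were left out. Sums without the most abundant gene were added after the data were seen.

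**Figure D5:**
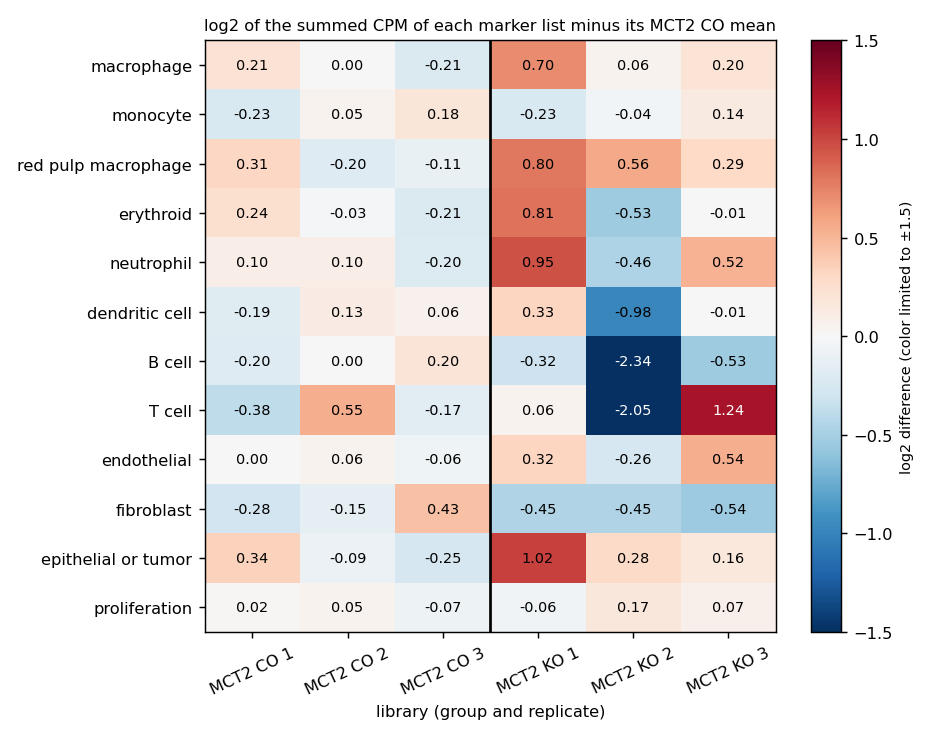
Log2 of the summed CPM of each marker list in each library minus the mean over the 3 MCT2 CO libraries, with the value printed in each cell and the color limited to 1.5 in either direction. MCT2 KO replicate 2 stands at -2.34 for B cell and -2.05 for T cell markers, and the red pulp macrophage row is above 0 in all 3 MCT2 KO libraries.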

How the data were processed

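Poly-A RNA of 6 CD11b+ preparations, 3 MCT2 CO and 3 MCT2 KO, was analysed. Per the submitters' processing notes, reads were checked with FastQC 0.12.0 and MultiQC 1.28, aligned with STAR 2.7.11b to GRCm38 and counted with featureCounts 2.1.1. The authors deposited raw read counts per gene, with neither normalization nor pooling. The annotation, feature type and strand setting of the counting are not given in the sources used here. Gene lengths in the table are whole spans and its positions match GENCODE M21 for 2.2% of the shared identifiers, so coordinates and exon lengths are from GENCODE M21. Sample records name lung, and the methods flank tumors, as the source.

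The 10 genes and all lists were chosen with earlier results of these data known. Counts were fitted with edgeR 4.0.16 in R 4.3.3 (filterByExpr, minimum count 10 and minimum total 15, TMM, quasi-likelihood test, Benjamini-Hochberg adjustment over 13485 genes). A call needed both an adjusted p within 0.05 and a log2 fold change of 0.58 or more in size. Named besides the members were *Slc16a7*, the 3 highest and 3 lowest other iron genes, the most abundant gene of each role, markers, genes whose span overlaps a member, and the 3 genes most correlated with *Slc40a1*. Also named, outside this rule, were *Blvra*, *Aco1*, the other iron genes below the filter and genes whose span overlaps other iron genes. The fit was tested on simulated counts. Alternatives were DESeq2 1.42.0, limma-voom (limma 3.58.1), other normalizations, filters and thresholds, a replicate block and each library left out. Each preparation was taken as 1 mouse, and if preparations shared material the p values would measure technical spread. Libraries of a group differed by far more than counting noise (chi-square per degree of freedom of 15.7 or more). Promoter windows were searched but are not shown, and a comparison of protein sequences was not run.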

Additional observations from a re-analysis of the deposited data

How the results depend on the processing

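edgeR called 0 genes; DESeq2 called 79 of these genes and 83 when it was run on every gene with a count, edgeR 2 without a filter on low counts, and 1264 genes had an unadjusted p under 0.05. Leaving out 1 library at a time gave 0 to 2 calls, with 2 without MCT2 KO replicate 2. DESeq2 called 1 of 10 members, *Slc40a1*, in both runs, beside 0.586% and 0.448% of all genes. Of the 65 other iron genes, 6 had an unadjusted p under 0.05, beside 9.37% of all genes. The log2 fold change of *Slc40a1* ran from 1.44 without MCT2 KO replicate 2 to 2.58 without MCT2 KO replicate 1. Members with groups that did not overlap numbered 2 to 4 of 10, with 4 without MCT2 KO replicate 2. Among all genes the share was 15.8% with 6 libraries and 31.7% without that library. Leaving a library out cannot make separated groups overlap. The median of the other iron genes ran from 0.0211 without MCT2 CO replicate 3 to 0.0900. *Slc16a7* passed at -1.05 (adjusted p = 0.00952) and -1.04 (adjusted p = 0.00908) by DESeq2 and at -1.05 by unadjusted p, and leaving out libraries gave -1.30 to -0.85. Small changes of sign came with libraries left out: for *Fth1* without MCT2 CO replicate 3 or MCT2 KO replicate 1, for *Ncoa4* without MCT2 KO replicate 2 and for *Ireb2* without MCT2 CO replicate 1. With the replicate block 0 genes were called, and *Slc40a1* stood at 2.04, the median of the members at 0.12 and *Slc16a7* at -1.06. The sample titles give same-numbered libraries a shared replicate number and nothing else, and the library names number the MCT2 KO libraries otherwise. The deviations of libraries with the same replicate number correlated at 0.216, -0.247 and -0.161. Without a reference spread, these values cannot settle whether such libraries were prepared together. The cause of these differences was not tested. Counting error is small except for *Slc40a1* and other genes of a few CPM.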
